A study of Mus musculus with 18 samples.

Results

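The NRF2 antioxidant transcripts were followed in mouse eosinophils that had been exposed to apoptotic cells together with Type 1 or Type 2 stimuli. They comprise 10 genes of the 54446 in the table, chosen by symbol, namely Nfe2l2, Hmox1, Nqo1, Gclm, Gclc, Slc7a11, Txnrd1, Srxn1, Prdx1 and Gsr, and all 10 were found and had values high enough to be tested. RNA sequencing by CEL-Seq2, which reads the 3′ ends of transcripts, covered 18 libraries of peritoneal eosinophils from Il5Tg mice, which carry an Il5 transgene, on the C57BL/6 strain given by the labels. Every library came from eosinophils co-cultured with apoptotic cells (ACs), which were wild-type thymocytes treated with dexamethasone, and the eosinophils were re-purified on Siglec-F before RNA extraction. The Type 1 experiment held 12 libraries, 3 of each group, and its groups received ACs with no stimulus (ACs), E. coli (E. coli + ACs), IFN-γ (IFN-γ + ACs) or both stimuli (IFN-γ + E. coli + ACs), with IFN-γ given before the bacteria. The IL-4 experiment held 6 libraries, 3 with its own ACs alone and 3 with IL-4 + ACs. Eosinophils without ACs were not analysed here, so each change below is the effect of a stimulus on top of ACs. The labels give no age, and they do not tie the libraries to separate animals or cultures, so p-values measure the spread between libraries.

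NRF2, encoded by Nfe2l2, is a transcription factor that the KEAP1 ubiquitin ligase adaptor marks for degradation in resting cells. Oxidants and electrophiles disable KEAP1, NRF2 then accumulates with little need for more of its own mRNA, pairs with small MAF proteins and binds antioxidant response elements in its target genes. BACH1 competes for the same elements and restrains Hmox1 in particular. Eosinophils release large amounts of superoxide through NADPH oxidase and so also carry the glutathione and thioredoxin systems that remove peroxides.

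Promoter windows were examined because most of these transcripts moved together and the element is defined by its letters. The RefSeq promoter table (GRCm38.p6, 250 bases before to 50 bases after a start) held windows for 7 of the 10 genes and none for Hmox1, Gclc and Gsr. The element core, written TGACNNNGC and searched on both strands, occurred in a window of 5 of these 7 genes (Nfe2l2, Gclm, Txnrd1, Srxn1 and Prdx1) and in none for Nqo1 and Slc7a11. Of all 32851 windows, 12.4% held it, and 14.0% of the 27025 genes with a window did. For Txnrd1 it was found in 1 of 3 windows. The match for Nfe2l2 lay 240 bases before the start, outside the annotated Nfe2l2 gene but within an annotated exon of another gene. The match for Srxn1 lay after the start, in an annotated exon. Neither is shown. The other 3 are printed 5′ to 3′ on the gene's strand, with the match in capitals. In each it stands on the opposite strand, so that it reads as the reverse complement of the core. A match is a description of the letters only.
Gclm chr3:122245378-122245476: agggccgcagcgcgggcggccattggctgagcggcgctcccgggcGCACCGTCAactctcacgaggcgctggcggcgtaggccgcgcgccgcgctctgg
Txnrd1 chr10:82859069-82859167: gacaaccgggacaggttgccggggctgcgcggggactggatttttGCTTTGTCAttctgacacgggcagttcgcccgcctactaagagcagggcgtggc
Prdx1 chr4:116685421-116685519: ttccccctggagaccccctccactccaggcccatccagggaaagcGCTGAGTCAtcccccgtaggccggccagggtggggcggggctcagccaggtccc
The first capital lies 134 bases before the start in Gclm, 92 before it in Txnrd1 and 133 before it in Prdx1. Of the 5 genes with a match, Gclm and Prdx1 were among the transcripts with the largest changes described below. Txnrd1 and Srxn1 also rose there, and Nfe2l2 changed little. Slc7a11, which had no match in its window, was among those with the largest changes too. Whether a match bears on a change was not tested.

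Libraries of the Type 1 experiment held 2216917 to 5078760 reads on genes, and those of the IL-4 experiment held 779421 to 7782072. The replicate 3 libraries of both IL-4 groups were shallow, with 849705 reads for IL-4 + ACs and 779421 for ACs, and 1 read there stood for a normalized count of 5.14 or 5.36. The lowest read number behind any value of the 10 genes was 19, for Nqo1 in the shallow ACs library. Eosinophil markers were present in all libraries, with Siglecf at normalized counts of 1514 to 3367 and Ccr3 at 2623 to 4934, while the granule protein transcripts Epx (0 to 25.7) and Prg3 (0 to 26.8) were at or near 0. Macrophage transcripts were not low. The 14 macrophage markers, none of which was at 0 in any library, summed to 16063 to 20309 in ACs of the Type 1 experiment, 8513 to 10311 in E. coli + ACs, 23248 to 32548 in IFN-γ + ACs and 9849.7 to 10064 in IFN-γ + E. coli + ACs. The thymocyte markers, of which Rag1, Rag2, Dntt and Ptcra stayed at 5.14 or below, summed to 314 at most. In these bulk samples, fewer cells of a type and less RNA per cell cannot be told apart.

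The transcript for the regulator itself, Nfe2l2 (ENSMUSG00000015839.6, chr2:75675513-75704641, minus strand, GRCm38), changed little. It had normalized counts of 632, 586 and 603 in ACs and of 783, 682 and 689.6 in E. coli + ACs. The counts were 638, 675 and 794 in IFN-γ + ACs and 757, 698 and 849 in IFN-γ + E. coli + ACs. All 9 stimulated libraries lay above the 3 ACs libraries, but the distance was small. The log2 fold changes were 0.24 ± 0.12 (SE, adjusted p = 0.22) for E. coli, 0.21 ± 0.12 (adjusted p = 0.23) for IFN-γ and 0.34 ± 0.12 (adjusted p = 0.036, 1.26-fold) for both, none past the threshold, which asked for both 1.5-fold or more and an adjusted p below 0.05. Fold changes throughout are on the scale of log2 of the normalized count plus 1, and n is 3 libraries per group.

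**Figure D1:**
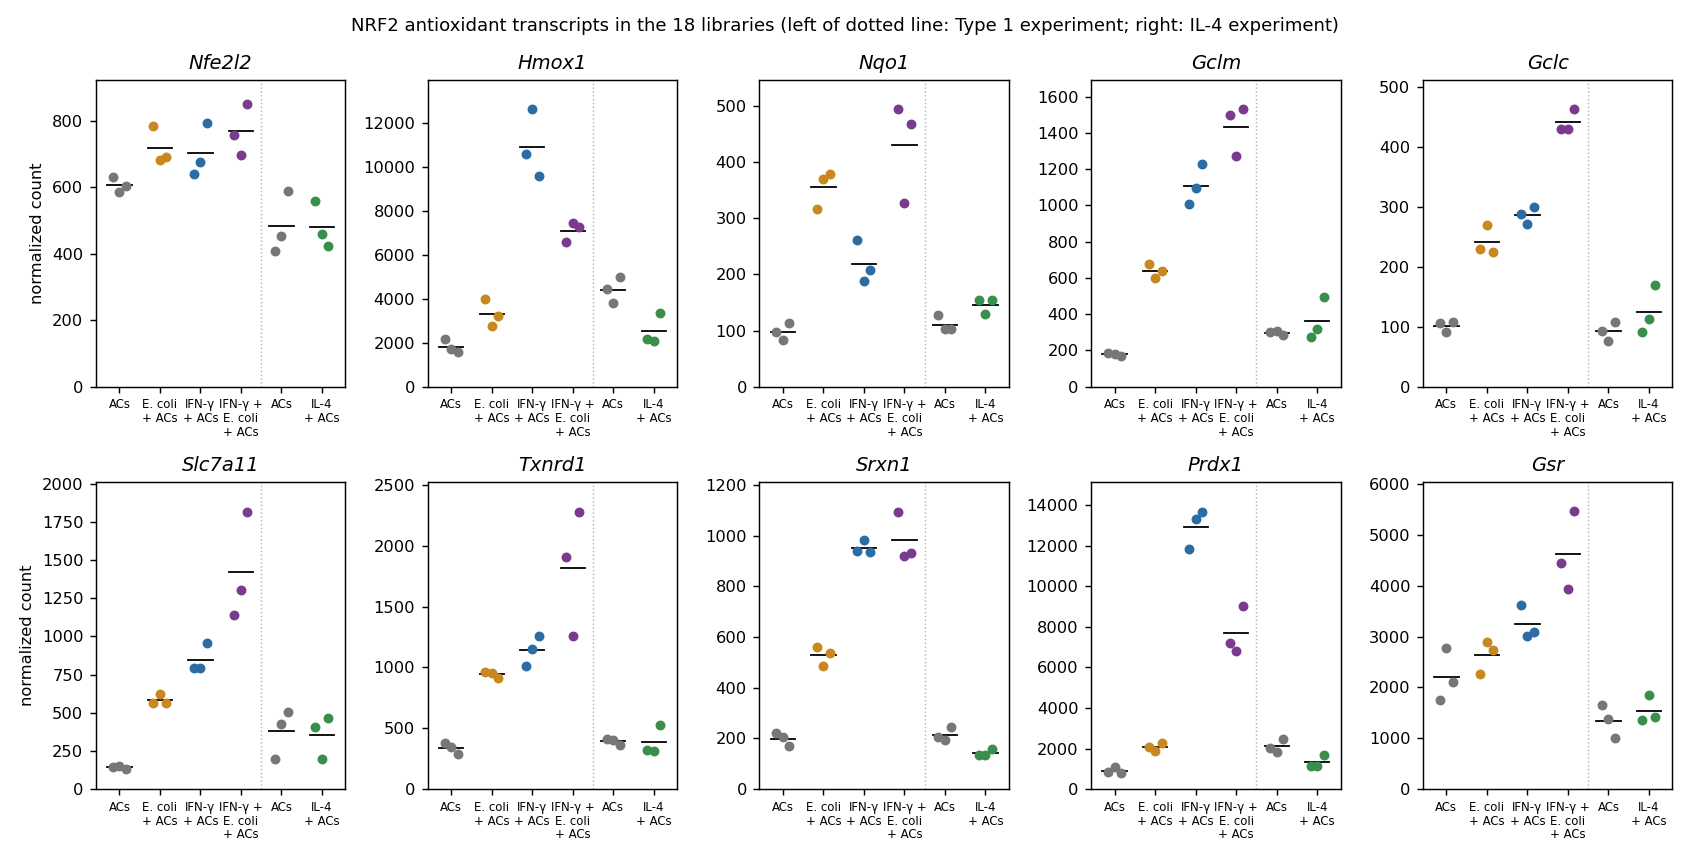
Normalized counts (vertical axes, starting at 0) of the 10 transcripts in each of the 18 libraries, with 1 point per library and a bar at the mean of each group of 3. Most transcripts stand higher in all stimulated libraries of the Type 1 experiment than in its ACs libraries, Hmox1 and Prdx1 are highest with IFN-γ alone, and the IL-4 and ACs libraries on the right mostly overlap.

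The other transcripts changed more. Against ACs, 8 of the 10 transcripts rose with E. coli (5.05% of all 10166 transcripts tested rose), 8 rose with IFN-γ (11.4% of all) and 9 rose with both (14.7% of all), and none fell. Every stimulated library lay above every ACs library for 9, 10 and 10 of them (19.9%, 22.6% and 23.9% of all). The 8 were the same genes in all 3 comparisons, namely all but Nfe2l2 and Gsr, and Gsr joined them with both stimuli. These comparisons share their 3 ACs libraries. The 10 genes were chosen with earlier results of these data known, so the shares over all transcripts are given for scale only. The median log2 fold change of the 10 was 1.32 with E. coli, 2.01 with IFN-γ and 2.21 with both, beside medians over all tested transcripts of -0.004, 0 and -0.0469.

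Transcripts for glutathione synthesis rose together. Slc7a11 (ENSMUSG00000027737.10, chr3:49892526-50443614, minus strand) encodes the cystine importer xCT, which supplies the cysteine for glutathione. Its normalized counts were 143, 153 and 129.7 in ACs and 561, 624 and 564 in E. coli + ACs. They were 793, 795 and 954 in IFN-γ + ACs and 1140.4, 1305 and 1813 in IFN-γ + E. coli + ACs. The 4 groups stood in this order without any overlap. Over ACs, the log2 fold changes of Slc7a11 were 2.03 ± 0.15 (SE, adjusted p = 3e-08) with E. coli, 2.57 ± 0.15 (adjusted p = 2e-10) with IFN-γ and 3.29 ± 0.15 (9.77-fold, adjusted p = 4.1e-12) with both. The step from IFN-γ to both was 0.72 ± 0.15 (adjusted p = 0.0022), and it was no longer past the threshold at 0.53 without IFN-γ + E. coli + ACs replicate 3, the highest library, nor with all 18 libraries in one fit (adjusted p = 0.096).

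Gclm (ENSMUSG00000028124.15, chr3:122245557-122270732, plus strand) and Gclc (ENSMUSG00000032350.9, chr9:77754535-77794485, plus strand) encode the modifier and catalytic subunits of glutamate-cysteine ligase, the rate-limiting enzyme of glutathione synthesis. Gclm had normalized counts of 188, 178 and 167 in ACs and 675, 601 and 638 in E. coli + ACs. It had 1006, 1093 and 1227 in IFN-γ + ACs and 1499.6, 1273 and 1529 in IFN-γ + E. coli + ACs. As for Slc7a11, no library of one group reached the next. Over ACs, Gclm had log2 fold changes of 1.84 ± 0.12 (SE, adjusted p = 5.7e-09), 2.63 ± 0.12 (adjusted p = 5.4e-12) and 3.001 ± 0.12 (8.01-fold, adjusted p = 6e-13), in the order E. coli, IFN-γ, both. An opposite-strand transcript that overlaps Gclm, Gm17494, averaged only 18.3 over the 18 libraries.

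Gclc had normalized counts of 107, 91.0 and 108 in ACs and 229, 269 and 224 in E. coli + ACs. Its counts were 288, 272 and 299.6 in IFN-γ + ACs and 430.5, 430.0 and 464 in IFN-γ + E. coli + ACs. The groups did not overlap here either, though E. coli and IFN-γ alone were close. Gclc thus had log2 fold changes over ACs of 1.23 ± 0.14 (SE, adjusted p = 4.6e-06), 1.48 ± 0.14 (adjusted p = 1.5e-07) and 2.11 ± 0.14 (4.30-fold, adjusted p = 7.5e-10). IFN-γ and E. coli alone differed by 0.25 (95% interval -0.04 to 0.54, adjusted p = 0.23). Within the ligase, the modifier subunit had the greater change over ACs with each of the 3 Type 1 stimuli, by their separate values.

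Gsr (ENSMUSG00000031584.16, chr8:33652523-33698163, plus strand) encodes glutathione reductase, which recycles oxidised glutathione, and moved least of the enzymes. Its normalized counts were 1758, 2769 and 2101 in ACs and 2271, 2888 and 2731 in E. coli + ACs. They were 3629, 3007 and 3080.2 in IFN-γ + ACs and 4455, 3941 and 5472 in IFN-γ + E. coli + ACs. ACs and E. coli + ACs overlapped, and the other groups lay above them. The log2 fold change was 0.27 ± 0.15 (SE, adjusted p = 0.29) with E. coli and 0.57 ± 0.15 (1.49-fold, adjusted p = 0.0093) with IFN-γ, just short of 1.5-fold. With both it rose by 1.08 ± 0.15 (2.11-fold, adjusted p = 1.8e-05). The IFN-γ value passed the threshold, at 0.75, 0.62 and 0.61, when ACs replicate 2, IFN-γ + ACs replicate 2 or IFN-γ + ACs replicate 3 was left out.

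The largest single change of the 10 transcripts, in the 4 comparisons with ACs, was that of Prdx1 with IFN-γ. Prdx1 (ENSMUSG00000028691.12, chr4:116685544-116700822, plus strand), a peroxiredoxin that reduces hydrogen peroxide, had normalized counts of 847, 1087 and 803 in ACs and 2067, 1862 and 2250.1 in E. coli + ACs. It had 11854, 13306 and 13636 in IFN-γ + ACs and 7219, 6806 and 9026 in IFN-γ + E. coli + ACs. IFN-γ alone thus stood above all other groups, with the combined stimulus between it and E. coli. The log2 fold changes over ACs were 1.18 ± 0.13 (SE, adjusted p = 3.6e-06) with E. coli, 3.83 ± 0.13 (14.3-fold, adjusted p = 1.9e-13) with IFN-γ and 3.07 ± 0.13 (8.42-fold, adjusted p = 1.4e-12) with both. Added to IFN-γ, E. coli changed Prdx1 by -0.76 ± 0.13 (1.69-fold lower, adjusted p = 0.00043). Prdx1 shares stretches of its 3′ end with 3 annotated pseudogenes, Gm7204, Gm15974 and Gm21399, each listed at 0 on average. In the methods, the pipeline built on HTSeq, the counter that the labels name, left out reads without a unique place in the genome.

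Srxn1 (ENSMUSG00000032802.8, chr2:152105516-152111376, plus strand) encodes sulfiredoxin, which repairs over-oxidised peroxiredoxins. Its normalized counts were 221, 204 and 170.4 in ACs and 563, 484 and 536 in E. coli + ACs. They were 940.5, 981 and 934 in IFN-γ + ACs and 1095, 919.8 and 931 in IFN-γ + E. coli + ACs. The last 2 groups overlapped, and both stood above E. coli + ACs and ACs. Srxn1 rose by 1.41 ± 0.13 (SE, adjusted p = 2.8e-07) with E. coli, 2.26 ± 0.13 (adjusted p = 1.1e-10) with IFN-γ and 2.30 ± 0.13 (4.94-fold, adjusted p = 5.5e-11) with both, on the log2 scale. The difference between the combined stimulus and IFN-γ alone was 0.04 (95% interval -0.23 to 0.31, adjusted p = 0.86).

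Txnrd1 (ENSMUSG00000020250.10, chr10:82833951-82897712, plus strand) encodes the cytosolic thioredoxin reductase, which passes electrons from NADPH to thioredoxin. It had normalized counts of 377, 346 and 289.5 in ACs and 962, 956 and 917 in E. coli + ACs. The counts were 1014, 1149.7 and 1258 in IFN-γ + ACs and 1909, 1255 and 2281 in IFN-γ + E. coli + ACs. The single stimuli formed tight groups, whereas the combined group was the most scattered and its replicate 2 fell inside the range of IFN-γ + ACs. Txnrd1 had log2 fold changes over ACs of 1.49 ± 0.17 (SE, adjusted p = 4.6e-06), 1.76 ± 0.17 (adjusted p = 2e-07) and 2.39 ± 0.17 (5.23-fold, adjusted p = 2e-09). The step from IFN-γ to both, 0.63 ± 0.17 (adjusted p = 0.012), no longer passed the threshold without IFN-γ + ACs replicate 1 (0.55), without combined replicate 1 (0.57) or without combined replicate 3 (0.45).

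Nqo1 and Hmox1 encode detoxifying enzymes and responded in opposite order. Nqo1 (ENSMUSG00000003849.8, chr8:107388225-107403206, minus strand), a quinone reductase, had normalized counts of 97.6, 82.6 and 114 in ACs and 316, 369 and 378 in E. coli + ACs. It had 261, 188 and 207 in IFN-γ + ACs and 495, 326 and 468 in IFN-γ + E. coli + ACs. E. coli stood above IFN-γ in every library, and the combined group overlapped E. coli + ACs. In the order E. coli, IFN-γ and both, the log2 fold changes of Nqo1 were 1.85 ± 0.18 (SE, 3.61-fold, adjusted p = 8.9e-07), 1.15 ± 0.18 (2.22-fold, adjusted p = 8.6e-05) and 2.11 ± 0.18 (4.31-fold, adjusted p = 2.9e-08). IFN-γ gave less than E. coli by -0.70 ± 0.18 (adjusted p = 0.0084), and Nqo1 was the only 1 of the 10 to be lower with IFN-γ than with E. coli past the threshold (6.72% of all transcripts were).

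Hmox1 (ENSMUSG00000005413.8, chr8:75093621-75100589, plus strand) encodes heme oxygenase 1, which opens the heme ring to biliverdin, iron and carbon monoxide. Its normalized counts were 2168, 1722 and 1576 in ACs and 3999.9, 2760.0 and 3234 in E. coli + ACs. They were 10598, 12637 and 9577 in IFN-γ + ACs and 6607, 7451 and 7286 in IFN-γ + E. coli + ACs. None of the groups overlapped, and as for Prdx1 the combined stimulus lay between the single ones. The log2 fold changes over ACs were 0.87 ± 0.14 (SE, 1.82-fold, adjusted p = 0.00032), 2.59 ± 0.14 (6.02-fold, adjusted p = 8.9e-11) and 1.98 ± 0.14 (3.93-fold, adjusted p = 2.9e-09). Hmox1 was lower with both stimuli than with IFN-γ alone by -0.61 ± 0.14 (adjusted p = 0.0049), a call lost without IFN-γ + ACs replicate 2 (-0.50) or combined replicate 1 (-0.56).

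**Figure D2:**
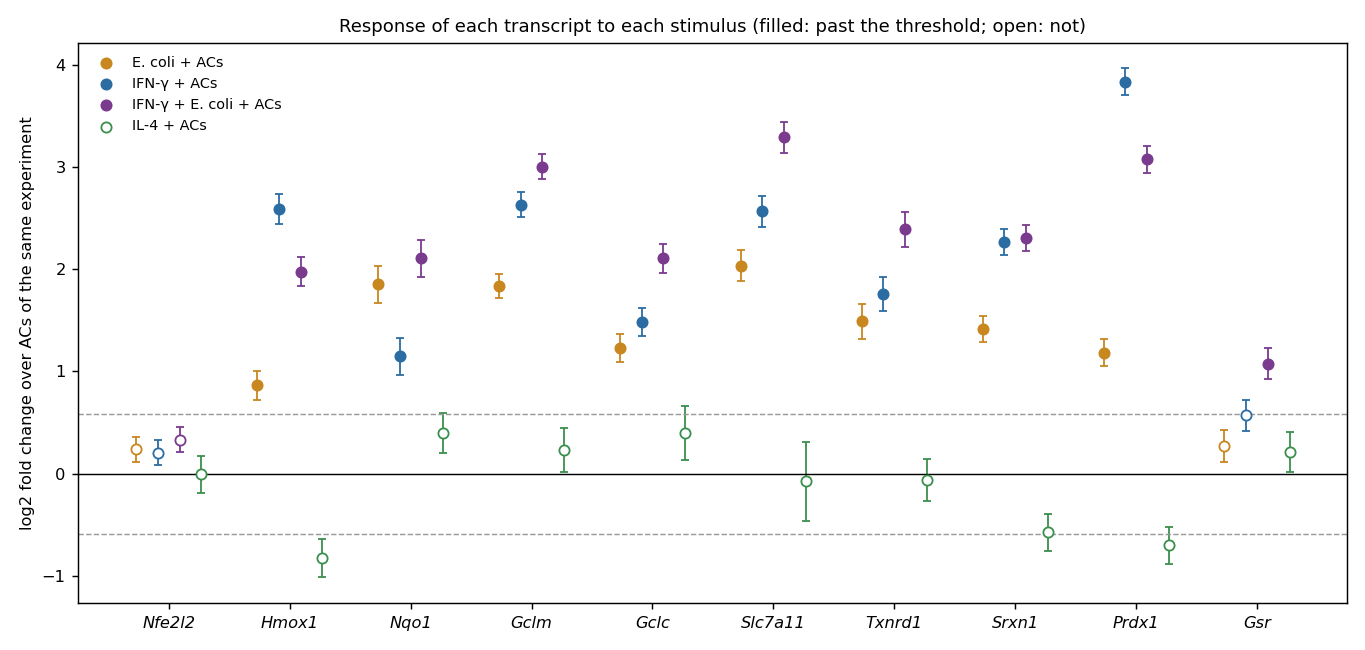
Log2 fold change over the ACs of the same experiment (vertical axis, ± SE) for the 10 transcripts under E. coli, IFN-γ, both and IL-4, with filled points past the threshold and dashed lines at 1.5-fold. Nfe2l2 stays near 0 throughout, Prdx1 with IFN-γ is highest at 3.83, and all IL-4 points are open.

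The same transcripts moved while other cell types' markers did too. Of the 14 macrophage markers, 7 fell and none rose with E. coli, 4 rose and 1 fell with IFN-γ, and 3 rose and 8 fell with both. The summed level in E. coli + ACs and in the combined group was thus below that in every ACs library, while 8 and 9 of the antioxidant transcripts rose. With IFN-γ the sum and the transcripts were both higher, and the rises included Marco (log2 fold change 2.17), Mertk (1.81), Timd4 (1.00) and C1qb (0.90). B cell markers summed to 902 to 1045 in ACs and to 312 to 318, 104 to 183 and 155 to 179.6 in the 3 stimulated groups. Of the 7, only 2 were high enough to be tested, and Ighm alone was called, lower in each. Of the 9 neutrophil markers 5 were tested, of which 3 rose with E. coli, 3 with IFN-γ and 4 with both, where 1 fell. The sums of the 9 were 1607 to 1900.4, 2303 to 2586, 2021 to 2532 and 1114 to 1418 in the 4 groups. Eosinophil markers summed to 17701 to 19157 in ACs and to 10968 to 12493 in IFN-γ + ACs, where Siglecf fell by 0.99 on the log2 scale. Of the 12 eosinophil markers 9 were tested, of which 5 fell and none rose with IFN-γ. With E. coli 1 rose and 1 fell, and with both 1 rose and 2 fell. The eosinophil sums were 19474 to 20794 in E. coli + ACs and 16389 to 18960 in the combined group. Mast cell markers were low, with sums of 5.6 to 20.3 in ACs and 21.1 to 38.4, 26.7 to 68.8 and 35.6 to 64.7 in the 3 stimulated groups, and Cpa3, the only 1 of the 7 high enough to be tested, rose with IFN-γ and with both. Mitochondrial transcripts made up 10.9% to 11.9% of the reads on genes in ACs, 6.86% to 7.77% in E. coli + ACs, 8.36% to 9.47% in IFN-γ + ACs and 6.05% to 7.38% in the combined group, so every stimulated library lay below every ACs library. The part of these shifts in the results above was not tested.

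The design also asks how the 2 Type 1 stimuli combine. Between the 2 single stimuli, 4 of the 10 transcripts were higher with IFN-γ (9.84% of all transcripts were), namely Prdx1 (log2 difference 2.65), Hmox1 (1.72), Srxn1 (0.85) and Gclm (0.79), and Nqo1 was lower. Set against E. coli + ACs, the combined stimulus was higher for 8 (9.79% of all), with differences between 0.81 for Gsr and 1.89 for Prdx1, and Nfe2l2 (0.09) and Nqo1 (0.26) did not pass. Set against IFN-γ + ACs it was higher for 4 (5.96% of all), namely Nqo1 (0.96), Slc7a11 (0.72), Txnrd1 (0.63) and Gclc (0.62), and lower for Hmox1 and Prdx1 (8.61% of all were lower). The value for Gclc was 0.58, short of 1.5-fold, when libraries were scaled to a common upper quartile. The mean was highest in the combined group for 8 of the 10 transcripts and in IFN-γ + ACs for Hmox1 and Prdx1.

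On the log2 scale the combined change was smaller than the sum of the 2 single changes for 7 of the 10 transcripts (4.28% of all transcripts were past the threshold in this direction) and larger for none. The interaction was -1.94 ± 0.19 (SE, adjusted p = 3.8e-06) for Prdx1, -1.48 ± 0.20 (adjusted p = 0.00014) for Hmox1, -1.47 ± 0.17 (adjusted p = 2.3e-05) for Gclm, -1.37 ± 0.18 (adjusted p = 8e-05) for Srxn1 and -1.31 ± 0.21 (adjusted p = 0.00088) for Slc7a11, whose call was lost with all 18 libraries in one fit (adjusted p = 0.066). It was -0.89 ± 0.26 (adjusted p = 0.04) for Nqo1 and -0.86 ± 0.24 (adjusted p = 0.033) for Txnrd1. Both of these calls were lost with all 18 libraries in one fit, with every gene above 0, and when any 1 of the E. coli + ACs libraries was left out. The Nqo1 call was also lost without ACs replicate 1 or 2, IFN-γ + ACs replicate 1 or combined replicate 2, and the Txnrd1 call without ACs replicate 2 or 3 or IFN-γ + ACs replicate 2 or 3, with adjusted p up to 0.11 and 0.10 over the alternatives. Gclc (-0.61, adjusted p = 0.066, and 0.048 with a mean minimum of 50), Gsr (0.24, adjusted p = 0.58) and Nfe2l2 (-0.11, adjusted p = 0.77) did not pass.

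A log2 interaction below 0 says that the stimuli combined by less than multiplication, and on the linear scale the picture differed by gene. For each transcript the ACs mean plus both single increments was set beside the 3 combined libraries, as a description. That sum lay above all 3 libraries for 4 transcripts, with 14079.6 against a combined mean of 7684 for Prdx1, 12446 against 7115 for Hmox1, 1281 against 982 for Srxn1 and 1569 against 1434 for Gclm. It lay below all 3 for Gclc (425 against 441) and Gsr (3659 against 4622). It lay within their range for the other 4, for example 1288 against 1419 for Slc7a11 and 1748 against 1815 for Txnrd1. The sum carries error too, from the spread within the groups. With that error, the combined mean minus the sum was -6396 ± 886 (SE) for Prdx1, -5332 ± 1019 for Hmox1 and -299 ± 64.5 for Srxn1. The difference was not clear of its error for Gclm (-135 ± 106), Gclc (16.2 ± 20.5) and Gsr (963 ± 603). For Prdx1 and Hmox1 the combined mean was also below that with IFN-γ alone.

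**Figure D3:**
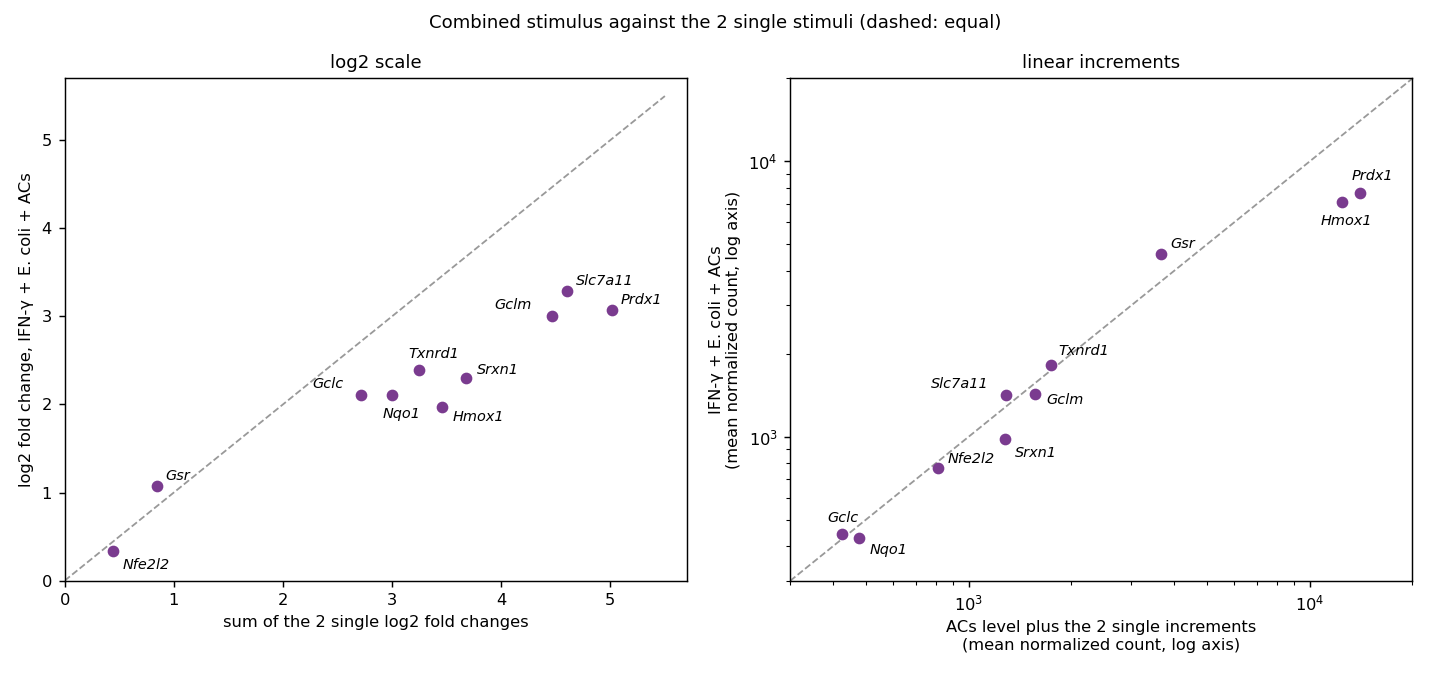
Left, the log2 change under the combined stimulus (vertical axis) against the sum of the single log2 fold changes (horizontal axis), and right, the mean normalized count in IFN-γ + E. coli + ACs against the ACs mean plus both single increments (log axes), with 1 point per transcript and dashed lines of equality. On the left all but Gsr lie below the line. On the right Prdx1, Hmox1, Srxn1, Gclm, Nqo1 and Nfe2l2 lie below it, and Gsr, Slc7a11, Txnrd1 and Gclc lie above.

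IL-4, the Type 2 stimulus, gave no such rise. Against the ACs of its own experiment, none of the 10 transcripts passed the threshold in either direction in the limma fit of the 6 libraries (1.09% of all 10669 transcripts tested did), 3 had an unadjusted p under 0.05, and the median log2 fold change was -0.035 beside -0.0084 over all. On the recovered read counts, edgeR called Hmox1 lower (0.797% of all transcripts were) and DESeq2 called Hmox1 and Prdx1 lower (0.759% of all). Both also passed, lower, in limma with every gene above 0, with array weights, with all 18 libraries in one fit and without both shallow libraries.

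Hmox1 had normalized counts of 4446, 3805 and 5013 in ACs and 2184, 2079.7 and 3367 in IL-4 + ACs. Every IL-4 library lay below every ACs library, and replicate 3, a shallow library, was the highest of the IL-4 group. The log2 fold change was -0.82 ± 0.19 (SE, adjusted p = 0.10, 1.77-fold lower), and it was -0.95 (adjusted p = 0.00019) without both shallow libraries and -1.04 (adjusted p = 0.022) without IL-4 + ACs replicate 3. Prdx1 had 2037, 1849.7 and 2482 in ACs and 1151, 1133 and 1676 in IL-4 + ACs, again without overlap. Its log2 fold change was -0.70 ± 0.18 (adjusted p = 0.16), and -0.77 (adjusted p = 0.00067) without both shallow libraries and -0.88 (adjusted p = 0.046) without IL-4 + ACs replicate 3. Over the 17 alternatives the adjusted p ranged from 2.1e-06 to 0.38 for Hmox1 and from 1.8e-05 to 0.53 for Prdx1.

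Srxn1 had 204, 192 and 247 in ACs and 136, 134 and 159 in IL-4 + ACs, also without overlap, at a log2 fold change of -0.57 ± 0.18 (SE, adjusted p = 0.31). Nqo1 was the only transcript of the 10 with all IL-4 libraries higher, at 127, 103 and 102 in ACs and 154, 130.2 and 154 in IL-4 + ACs, and its log2 fold change of 0.40 ± 0.19 (adjusted p = 0.55) did not pass. For comparison, 8.45% of all transcripts had every IL-4 library above every ACs library and 8.84% had the reverse. The other 6 overlapped between the groups. Gclm had 302, 308 and 284 against 273, 318 and 493 with IL-4, Gclc had 92.5, 77.1 and 107 against 91.0, 113 and 169.6, and Txnrd1 had 412, 405 and 365 against 322, 316 and 524. In each of these 3 the shallow IL-4 replicate 3 was the highest library.

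Slc7a11 was the most scattered, with 200.02, 428 and 504 in ACs and 408, 194 and 468 in IL-4 + ACs, so its log2 fold change of -0.07 had a 95% interval of -0.93 to 0.79. Gsr had 1655, 1380.3 and 1008 in ACs against 1366, 1848 and 1413 with IL-4, and Nfe2l2 had 409, 452 and 589.8 against 558, 458 and 421. The log2 fold changes of these 6 transcripts lay between -0.07 and 0.39, with adjusted p of 0.68 to 0.99. Of the 14 macrophage markers in this comparison 2 fell, Marco (-2.58) and Vsig4 (-1.36), with sums of 22067 to 32189.8 in ACs and 18206 to 28789 in IL-4 + ACs.

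Whether IL-4 differed from the Type 1 stimuli was tested on the responses themselves, each taken against its own ACs, in a fit over all 18 libraries. The response to IL-4 was lower than that to E. coli for 7 of the 10 transcripts (2.54% of all 10414 transcripts tested were), lower than that to IFN-γ for 7 (8.09% of all) and lower than that to both for 9 (10.8% of all), and higher for none. The differences beyond 3 on the log2 scale were -4.53 ± 0.22 (SE, adjusted p = 2.7e-11) for Prdx1 and -3.41 ± 0.25 (adjusted p = 4.5e-09) for Hmox1 against IFN-γ, and -3.77 ± 0.22 (adjusted p = 1.7e-10) for Prdx1 and -3.36 ± 0.41 (adjusted p = 3.6e-06) for Slc7a11 against both. Nfe2l2 passed in none, with differences of -0.25, -0.21 and -0.34. Gclc did not pass against E. coli (-0.84, adjusted p = 0.084) and Nqo1 did not pass against IFN-γ (-0.75, adjusted p = 0.059), and Gsr passed only against both (-0.87, adjusted p = 0.02). The Gsr call was lost in 5 of 22 alternatives, with adjusted p up to 0.067, namely with every gene above 0 and without Type 1 ACs replicate 1 (-0.71), combined replicate 3 (-0.74), IL-4 + ACs replicate 1 (-0.79) or replicate 1 of the ACs of the IL-4 experiment (-0.70). Gclc against E. coli and Nqo1 against IFN-γ passed with edgeR, with DESeq2, with array weights and without both shallow libraries. The experiments were separate, so experiment and stimulus cannot be told apart in this comparison beyond the correction by each ACs group.

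The ACs libraries of the 2 experiments stood at different levels, which were not tested against each other. Hmox1 averaged 1822 in ACs of the Type 1 experiment and 4421 in ACs of the IL-4 experiment, Prdx1 912 and 2123, Slc7a11 142 and 377, and Gclm 178 and 298. Nqo1 (98.1 and 111), Srxn1 (198 and 214), Txnrd1 (338 and 394) and Gclc (102 and 92.3) were nearer to each other. Gsr (2209 and 1348) and Nfe2l2 (607 and 484) were lower in the IL-4 experiment, Gsr without overlap. The macrophage marker sum of the ACs libraries was higher in the IL-4 experiment, and its part in these levels was not tested.

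Some of the genes that act on NRF2 rose with the Type 1 stimuli. Of 12 regulators tested, 2 rose with E. coli, 2 with IFN-γ and 4 with both (5.05%, 11.4% and 14.7% of all transcripts rose), none fell (5.25%, 9.96% and 17.2% of all fell), and with IL-4 none of the 11 tested passed. Sqstm1, which encodes p62, an autophagy receptor that sequesters KEAP1, rose with each Type 1 stimulus, by 0.68 ± 0.14 (SE, adjusted p = 0.0019), 0.99 ± 0.14 (adjusted p = 1.8e-05) and 0.86 ± 0.14 (adjusted p = 6e-05). Maff, a small MAF partner of NRF2, rose by 2.07 ± 0.28 with IFN-γ (adjusted p = 1.8e-05) and by 2.81 ± 0.28 with both (adjusted p = 2.5e-07), from a mean of 22.3 in ACs to 96.6 and 164. Mafk (0.96) and Bach1 (0.70) rose with both, and Mafg (0.59) rose with E. coli. Keap1 was not past the threshold in any comparison, with log2 fold changes of 0.05, 0.52 and 0.58 in the Type 1 experiment and -0.11 with IL-4. The IFN-γ and combined values had adjusted p of 0.0094 and 0.0029 and fell short of 1.5-fold.

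Other genes that are commonly placed downstream of NRF2 moved less uniformly. Of 28 on this list, 23 were tested in the Type 1 experiment. With E. coli 8 rose and 2 fell (5.05% and 5.25% of all transcripts did). With IFN-γ 15 rose and 1 fell (11.4% and 9.96% of all), and with both 11 rose and 3 fell (14.7% and 17.2% of all). The falls with IFN-γ and with both were thus no more frequent than over all transcripts. Their median log2 fold changes were 0.45, 0.90 and 0.65. With E. coli the largest rises were those of Osgin1 (1.28), Fth1 (1.05), Slc48a1 (0.87) and Slc3a2 (0.85), the last being the partner chain of Slc7a11 in the cystine importer. With IFN-γ they were those of Me1 (2.30), Blvrb (2.16), Fth1 (1.59) and Txn1 (1.56), which encode malic enzyme, biliverdin reductase B, ferritin heavy chain and thioredoxin. Fth1 has processed pseudogenes, so its value is uncertain. With both they were those of Abcc1 (2.00), a glutathione conjugate exporter, Pgd (1.39), Blvrb (1.38) and Txn1 (1.26). The falls were Idh1 (-0.95) and Cbr1 (-0.84) with E. coli, Cbr1 (-0.69) with IFN-γ, and Cbr1 (-2.05), Blvra (-1.43) and Idh1 (-1.06) with both. Blvra, biliverdin reductase A, went from a mean of 49.0 to 17.97, was too low for the naming rule and was chosen after its values were seen. Cbr1, a carbonyl reductase, and Idh1, a cytosolic source of NADPH, thus moved opposite to the rises on the list. With IL-4, of 24 tested, Gstm1, a glutathione S-transferase, alone passed and fell by 1.67 on the log2 scale.

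A further list, of other antioxidant enzymes and the thioredoxin inhibitor Txnip, changed in both directions. Of 17 tested of 18, 3 rose and 1 fell with E. coli (5.05% and 5.25% of all transcripts did). With IFN-γ 4 rose and 2 fell (11.4% and 9.96% of all), and with both 4 rose and 3 fell (14.7% and 17.2% of all). The falls were thus near the share over all transcripts. The medians were 0.03, 0.10 and -0.43. Sod2, the mitochondrial superoxide dismutase, rose with each, by 1.34, 1.69 and 1.31, and Prdx5 rose by 0.68, 1.34 and 1.34. Gpx3, another glutathione peroxidase, averaged 36.3 in ACs and 101, 93.8 and 74.6 with E. coli, IFN-γ and both. No stimulated library overlapped ACs for Gpx3. With both stimuli Cat averaged 2298 against 1127 in ACs, Glrx5 117 against 220 and Prdx2 59.7 against 101, each without overlap. Gpx1, the main cytosolic glutathione peroxidase, fell with IFN-γ (-1.08 ± 0.12, SE, adjusted p = 1.3e-06) and with both (-1.52 ± 0.12, adjusted p = 9.2e-09). Prdx6 rose with IFN-γ (1.44) and was the only transcript of this list to pass with IL-4 (-0.81 ± 0.13, adjusted p = 0.015), where its counts were 2314, 2726 and 2922 in ACs and 1486, 1453 and 1583 in IL-4 + ACs without overlap. Txnip, an inhibitor of thioredoxin, fell with E. coli (-0.81) and with IFN-γ (-0.86).

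**Figure D4:**
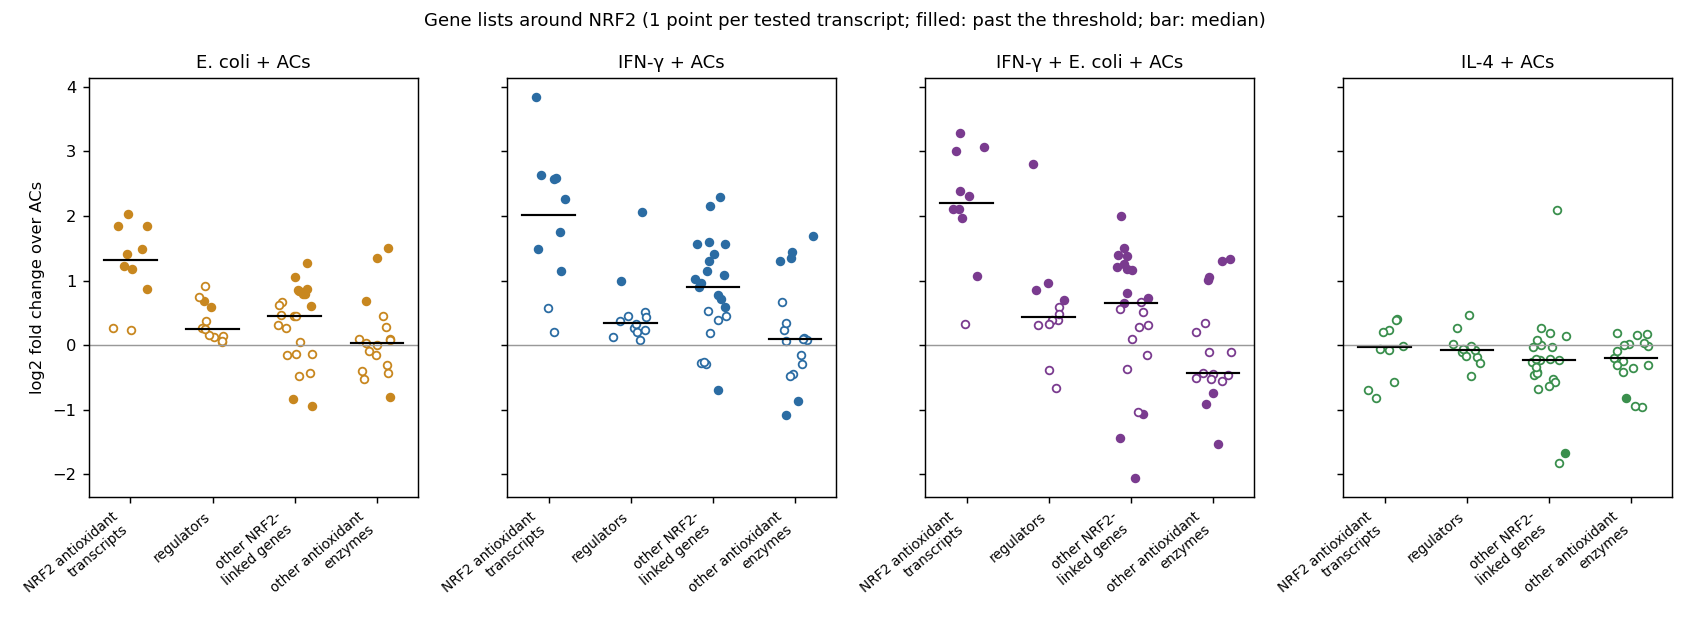
Log2 fold change over ACs (vertical axis) for each tested transcript of the 4 gene lists under each stimulus, with filled points past the threshold and a bar at the median of each list. The 10 antioxidant transcripts have the highest median under each Type 1 stimulus (1.32, 2.01 and 2.21), and all 4 medians are near 0 or below with IL-4.

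The transcripts with the most similar profile were sought among 6907 transcripts, as a description. A profile was the 6 group means of log2 of the normalized count plus 1, centred on the transcript's own mean. Profiles were compared by their root mean square difference. The level difference between the ACs of the 2 experiments therefore enters beside the responses. Gclm and Slc7a11 were each other's nearest transcript (0.20). Next came Icam1 (0.275) and Thbs1 (0.28) for Gclm, and Basp1 (0.25) and Upp1 (0.31) for Slc7a11. For Gclc the order was Zwint (0.1538), Mir22hg (0.165) and Txnrd1 (0.1654). For Txnrd1 it was B3galnt2 (0.15), Gclc (0.17) and Mir22hg (0.22). Nearest to Hmox1 was Blvrb (0.23), biliverdin reductase B, followed by Nrp2 and Stx2 (0.33 each). Nearest to Nqo1 were Irak2 and Il1rn (0.17 each) and Blcap (0.19). Nearest to Srxn1 were Tgif1 (0.25), Uhrf1bp1 (0.30) and Thbs1 (0.31). Nearest to Prdx1 was Plpp3 (0.32), the largest nearest distance among the 8 transcripts called in at least 2 of the 4 comparisons. Hspa1b and Tnfaip2 followed it (0.41 each).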

How the data were processed

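RNA was measured in 18 libraries in 6 groups of 3, with groups and replicate numbers taken from GEO's sample labels. Per the labels, the submitters' processing notes name FastQC 0.11.5, Trim Galore, cutadapt 1.10, TopHat2 2.1.0, Bowtie2 2.2.6, HTSeq 0.6.1, DESeq2 1.26.0 and the build GRCm38. The methods also describe a second pipeline, and which made the table is not given in the sources used here. The authors deposited, per gene and library, a signal that is the read count divided by a DESeq2 size factor, for 54446 genes, of which 54409 identifiers had a symbol. Every value (100% in each library) was a whole number of reads within 0.05 read, so read counts were recovered for edgeR 4.0.16 and DESeq2 1.42.0. Values of 3 reads or fewer cannot be told from 0, which covers counting error only.

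Log2 of the normalized count plus 1 was fitted with limma 3.58.1 (lmFit, eBayes with trend) in R 4.3.3, on genes with a mean of at least 10 over the libraries of the fit. The 12 Type 1 libraries, the 6 IL-4 libraries and, for differences between responses, all 18 were fitted, with Benjamini-Hochberg adjustment over all genes tested. A transcript was called at an adjusted p under 0.05 and at least 1.5-fold. The 10 genes and the other lists were chosen with earlier results of these data known. All 10 genes were named, with the cell type markers and the 3 transcripts nearest in their profile of group means. Of each other list, up to 4 rises and 4 falls were named per comparison with ACs. These had no overlap between groups and 50 or more as the higher mean.

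Alternatives were a pseudocount of 5, no filter on low values beyond any value above 0, a higher mean minimum of 50, upper quartile scaling, the replicate number as a block, array weights, edgeR, DESeq2, no fold threshold, all 18 libraries in one fit, leaving out both shallow libraries, and leaving out each library. Between replicates the chi-square of the read counts per degree of freedom was 3.92 to 13.2, so no 2 libraries agreed within sampling noise. The fits were tested on simulated data. Gene positions are from GENCODE on GRCm38 and promoter windows from RefSeq on GRCm38.p6. Copies were searched as shared runs of 36 bases within the last 300 bases of each transcript. Python 3.11.15 with pandas 2.3.3 and matplotlib 3.10.9 served for tables and plots.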

Additional observations from a re-analysis of the deposited data

Results flagged for a closer look

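The effect of E. coli differed with and without IFN-γ for 7 of the 10 transcripts, by limma's test of the interaction. On the log2 scale the combined change was below the sum of the single changes by -1.94 for Prdx1, -1.48 for Hmox1, -1.47 for Gclm, -1.37 for Srxn1, -1.31 for Slc7a11, -0.89 for Nqo1 and -0.86 for Txnrd1. For Hmox1 and Prdx1 the effect of E. coli changed direction. E. coli raised Hmox1 by 0.87 and Prdx1 by 1.18 without IFN-γ, and in its presence the values were -0.61 and -0.76. The macrophage marker sum was 9849.7 to 10064 in the combined group against 23248 to 32548 in IFN-γ + ACs, and its part in these differences was not tested. Groups of 3 libraries are too small for the search for outlying samples.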

How the results depend on the processing

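Of the counts of transcripts past the threshold, those for E. coli (8), IFN-γ (8), both (9), both against E. coli (8) and the differences between the IL-4 response and the others (7, 7 and 9) moved by less than 1.5 times under every alternative run. Leaving out 1 library at a time gave 8 for E. coli, 8 to 9 for IFN-γ, 9 for both, 8 for both against E. coli, 5 to 6 for IFN-γ against E. coli, 4 to 7 for both against IFN-γ, 5 to 7 for the interaction, 0 to 2 for IL-4, and 7 to 8, 7 to 8 and 8 to 9 for the IL-4 response against that to E. coli, IFN-γ and both. With all 18 libraries in one fit the interaction count was 4 in place of 7, the calls of Nqo1, Slc7a11 and Txnrd1 being lost. For IL-4 the count was 2 in place of 0 with every gene above 0, array weights, DESeq2, all 18 libraries in one fit or without both shallow libraries, and 1 with edgeR. The cause was not tested.

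Values near 0 changed sign in some settings. Srxn1 for both against IFN-γ became -0.0033 under upper quartile scaling and ranged from -0.0399 to 0.0855 without single libraries. Nfe2l2 became -0.0046 for both against E. coli under upper quartile scaling, and ranged from -0.126 to 0.031 for IFN-γ against E. coli without single libraries. For IL-4 against ACs, Nfe2l2 became 0.244 with array weights, 0.0593 with edgeR, 0.0411 with DESeq2 and 0.233 without both shallow libraries, Gclm became -0.0137 with array weights and -0.0501 without both shallow libraries, and Slc7a11 became 0.244 with array weights. Without single libraries these 3 ranged from -0.121 to 0.146, from -0.0163 to 0.41 and from -0.477 to 0.316, and Txnrd1 from -0.303 to 0.0621. Against the E. coli response, Nfe2l2 became 0.0045 with array weights and Gsr ranged from -0.254 to 0.104 without single libraries. Against the IFN-γ response, Nfe2l2 became 0.0819 with array weights and 0.0272 without both shallow libraries. None of these values was past the threshold.

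No pairing by replicate number was seen in the residuals over all tested transcripts. That does not settle whether libraries of different groups shared animals or cultures, which neither the labels nor the paper gives library by library. Residuals of libraries with the same number correlated at -0.089 to 0.085 over 18 pairs in the Type 1 experiment and at 0.0005 to 0.021 over 3 pairs in the IL-4 experiment. With the replicate block the counts were 8, 8, 9 and 0 for E. coli, IFN-γ, both and IL-4, and the calls of Gclc against the E. coli response (-0.84, adjusted p = 0.047) and of Nqo1 against the IFN-γ response (-0.75, adjusted p = 0.046) were gained. Over all transcripts, the IL-4 comparison gave 116 calls, and 74 with the block, 208 with every gene above 0, 745 with array weights, 212 with edgeR, 209 with DESeq2, 221 with all 18 libraries in one fit and 656 without both shallow libraries. It gave 47 and 57 without IL-4 + ACs replicate 1 or 2, and 62 and 61 without ACs replicate 1 or 2. The interaction gave 756, and 495 with all 18 in one fit, 400 without E. coli + ACs replicate 1, 439 without ACs replicate 3 and 486 without IFN-γ + ACs replicate 2. The IL-4 response against that to E. coli gave 461, and 1431 with array weights and 711 with DESeq2, and against that to IFN-γ 1486, and 2423 with array weights. Upper quartile scaling moved the median over all transcripts by more than 0.1 for both against ACs, from -0.05 to -0.16, and the share of calls that were higher from 46.1% to 36.2%. For both against E. coli that share went from 50.6% to 37.4%, and for the IL-4 response against that to both from 47.3% to 60.6%. Depth limits Nqo1 and Gclc in the shallow libraries, where 19 and 20 reads were the lowest.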
